A study of Homo sapiens with 6 samples.

Results

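The invasion and mesenchymal switch genes ZEB1, ZEB2, AXL, NGFR, EGFR, WNT5A, CDH1, CDH2, VIM and FN1 were described in A2058, a human melanoma cell line. The cells overexpressed wild-type TET2 (TET2WT), which both glucose groups carried, and were kept for 7 days in glucose at a high or a normal level. The gene names were fixed by a list, and a peak region was taken as a member when it overlapped a gene's hg19 interval with 5 kb added at both ends. This gave 103 of 191314 5-hydroxymethylcytosine (5hmC) regions in high glucose and 136 of 209999 in normal glucose. For 5-methylcytosine (5mC) it gave 63 of 100220 regions in high glucose and 63 of 91870 in normal glucose, so that 365 of 593403 regions were members. The assays were hMeDIP-seq for 5hmC and MeDIP-seq for 5mC, which sequence DNA fragments pulled down with an antibody to the modified cytosine. Each mark and glucose level had 1 library. The 2 input libraries, of unenriched DNA, were not analysed here. A single library per group leaves every comparison without replicates, so no test across samples was possible. All the cells carried the transgene, so no library shows the marks without it. The labels do not say whether the cells were a single clone or a pool. They do not give the promoter of the transgene or the glucose concentrations either. The depth was estimated from the lowest expected counts of each list, taken as its background, on the assumption of a 2700 Mb genome. The shortest peak was assumed to equal the fragment length. For 5hmC the depth came to 28.0 M reads (high glucose) and 27.5 M reads (normal glucose). The same values were 6.14 M and 5.11 M for 5mC, so by this estimate 5mC was sampled by fewer reads.

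Melanoma cells can move between a differentiated, proliferative state and a dedifferentiated, invasive state that resembles the epithelial-mesenchymal transition. The zinc finger repressors ZEB1 and ZEB2 act upstream in this switch, and melanoma cells are known to exchange ZEB2 for ZEB1 as they become invasive. The receptor tyrosine kinases AXL and EGFR and the neurotrophin receptor NGFR mark invasive or therapy-tolerant cells, and the ligand WNT5A drives motility through non-canonical WNT signalling. E-cadherin (CDH1) gives way to N-cadherin (CDH2), while the intermediate filament vimentin (VIM) and the matrix protein fibronectin (FN1) are typical of mesenchymal cells. TET2 oxidises 5mC to 5hmC, which accumulates within gene bodies in many cell types, and 5mC at a CpG-rich promoter is a known accompaniment of silencing. The peak lists hold no RNA, so nothing here measures the expression of these genes.

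Antibodies against modified cytosine see mainly CpG-rich, modified stretches, so the letters upstream of the gene starts are shown for 4 genes that differ in their marks. The 250 bases before the RefSeq start on GRCh38.p14 are given 5′ to 3′ on the gene's strand, with every CG in capitals. AXL had 5hmC regions on both sides of its start, EGFR had regions of both marks near it, and VIM and FN1 had no region of either mark within 1 kb of theirs.
AXL, chr19:41218973-41219222 (+): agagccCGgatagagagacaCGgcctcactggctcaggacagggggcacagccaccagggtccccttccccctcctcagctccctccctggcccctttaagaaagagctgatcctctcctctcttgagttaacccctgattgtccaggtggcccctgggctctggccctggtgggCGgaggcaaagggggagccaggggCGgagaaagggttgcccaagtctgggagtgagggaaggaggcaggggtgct
EGFR, chr7:55018767-55019016 (+): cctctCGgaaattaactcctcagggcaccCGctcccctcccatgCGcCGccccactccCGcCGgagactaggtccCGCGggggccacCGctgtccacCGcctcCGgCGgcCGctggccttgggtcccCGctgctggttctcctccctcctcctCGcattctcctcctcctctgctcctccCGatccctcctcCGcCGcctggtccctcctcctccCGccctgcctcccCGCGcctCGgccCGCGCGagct
VIM, chr10:17227991-17228240 (+): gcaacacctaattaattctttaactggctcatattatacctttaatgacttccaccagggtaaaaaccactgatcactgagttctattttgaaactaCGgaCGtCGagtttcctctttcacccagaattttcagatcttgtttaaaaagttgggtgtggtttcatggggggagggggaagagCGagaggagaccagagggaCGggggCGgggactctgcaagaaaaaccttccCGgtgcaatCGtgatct
FN1, chr2:215436069-215436318 (-): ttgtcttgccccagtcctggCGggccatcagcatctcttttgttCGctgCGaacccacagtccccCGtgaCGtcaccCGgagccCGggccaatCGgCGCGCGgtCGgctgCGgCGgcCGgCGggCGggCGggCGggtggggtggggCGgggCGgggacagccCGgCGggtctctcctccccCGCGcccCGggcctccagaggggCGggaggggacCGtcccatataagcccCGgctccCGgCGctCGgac
The stretch held 4 CG in AXL, 25 in EGFR, 8 in VIM and 32 in FN1, where the median of all 35116 RefSeq promoters in the table was 11. At least as many CG as in FN1 were found in 9.52% of those promoters, and as in EGFR in 21.6%. Both strands carry the same CG pairs, so 1 strand was counted. FN1, the richest of these 4 stretches in CG, and VIM, with fewer than the median, were alike in lacking a listed region. These sequences are on GRCh38.p14 and the peaks on hg19. The bases were not placed on hg19, and whether the RefSeq start and the hg19 start coincide to the base was not determined.

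Of the 10 genes, 5 had at least 1 region touching the 2 kb window centred on the start, and the marks there differed from gene to gene. The start is the 5′ end of each gene's hg19 interval. RefSeq on GRCh38.p14 lists more than 1 start for ZEB1, AXL, EGFR, WNT5A and CDH2, and no window was set at the others. Around the start of AXL only 5hmC was listed. In high glucose its regions were chr19:41724489-41724892, 619 to 216 bp upstream, with a fold enrichment of 5.67 and 33 fragments at the summit, and chr19:41725249-41726338, 141 to 1230 bp downstream, with a fold of 5.87 and 44 fragments. In normal glucose they were chr19:41724599-41724857, with a fold of 3.36 and 15 fragments, and chr19:41725359-41726298, with a fold of 7.07 and 37 fragments. Regions on either side of the AXL start were thus listed at both glucose levels, though the upstream one of normal glucose was weak, with a -log10 p of 5.65. Folds, p-values and q-values are those of the authors' lists throughout, where the fold is relative to the local background, and they are not compared between lists. Fragments at the summit were worked out from the fold and the p-value of each peak. NGFR likewise carried 5hmC just inside its start at both glucose levels. Its region in high glucose was chr17:47572907-47573707, with the summit 702 bp downstream, a fold of 7.47 and 50 fragments, and in normal glucose chr17:47573054-47573655, with the summit 633 bp downstream, a fold of 8.07 and 31 fragments.

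The start of CDH1 was the place where both marks lay together at both glucose levels. The 5mC region ran from 542 bp upstream to 1210 bp downstream in high glucose (chr16:68770653-68772405, fold 19.0, 32 fragments) and from 392 bp upstream to 1246 bp downstream in normal glucose (chr16:68770803-68772441, fold 19.2, 30 fragments). It was the strongest 5mC region of CDH1 in both lists. 5hmC lay inside its downstream part, at chr16:68771524-68772261 in high glucose (fold 6.60, 26 fragments) and chr16:68771622-68772415 in normal glucose (fold 2.90, 21 fragments). The 5hmC region of normal glucose was weak, with a -log10 p of 5.77. In the 2 kb window 5mC covered 77.1% of the bases in high and 69.6% in normal glucose, and 5hmC 33.6% and 28.7%. Of the 10 genes, CDH1 was the only one whose start base itself lay in a region of any list.

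EGFR and WNT5A had 5hmC near the start at 1 glucose level. At EGFR a strong 5mC region began just inside the gene, at chr7:55087368-55088353 in high glucose (fold 43.9, 80 fragments, summit 1233 bp downstream) and chr7:55087337-55088334 in normal glucose (fold 39.4, 65 fragments, summit 1261 bp downstream). In normal glucose 5hmC was listed over it, at chr7:55087452-55088470, with a fold of 3.80 and 14 fragments, and also at chr7:55086082-55086644, 643 to 81 bp upstream, with a fold of 2.94 and 13 fragments. Neither had a 5hmC region of high glucose within 15 kb, since the nearest were 17086 and 15716 bp away. A weaker 5mC region lay 778 to 455 bp upstream in high glucose alone (chr7:55085947-55086270, fold 5.47, 9 fragments), 1067 bp from the nearest normal-glucose region. At WNT5A a 5hmC region was listed 125 to 488 bp inside the start in high glucose alone (chr3:55520843-55521206, fold 3.53, 18 fragments), and the nearest normal-glucose region was 946 bp away. These single-level regions have -log10 p values of 4.40 to 7.70, so they are among the weak ones, and a region missing from a list is not shown to be absent. ZEB1, ZEB2, CDH2, VIM and FN1 had no region touching the window in any of the 4 lists.

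**Figure D1:**
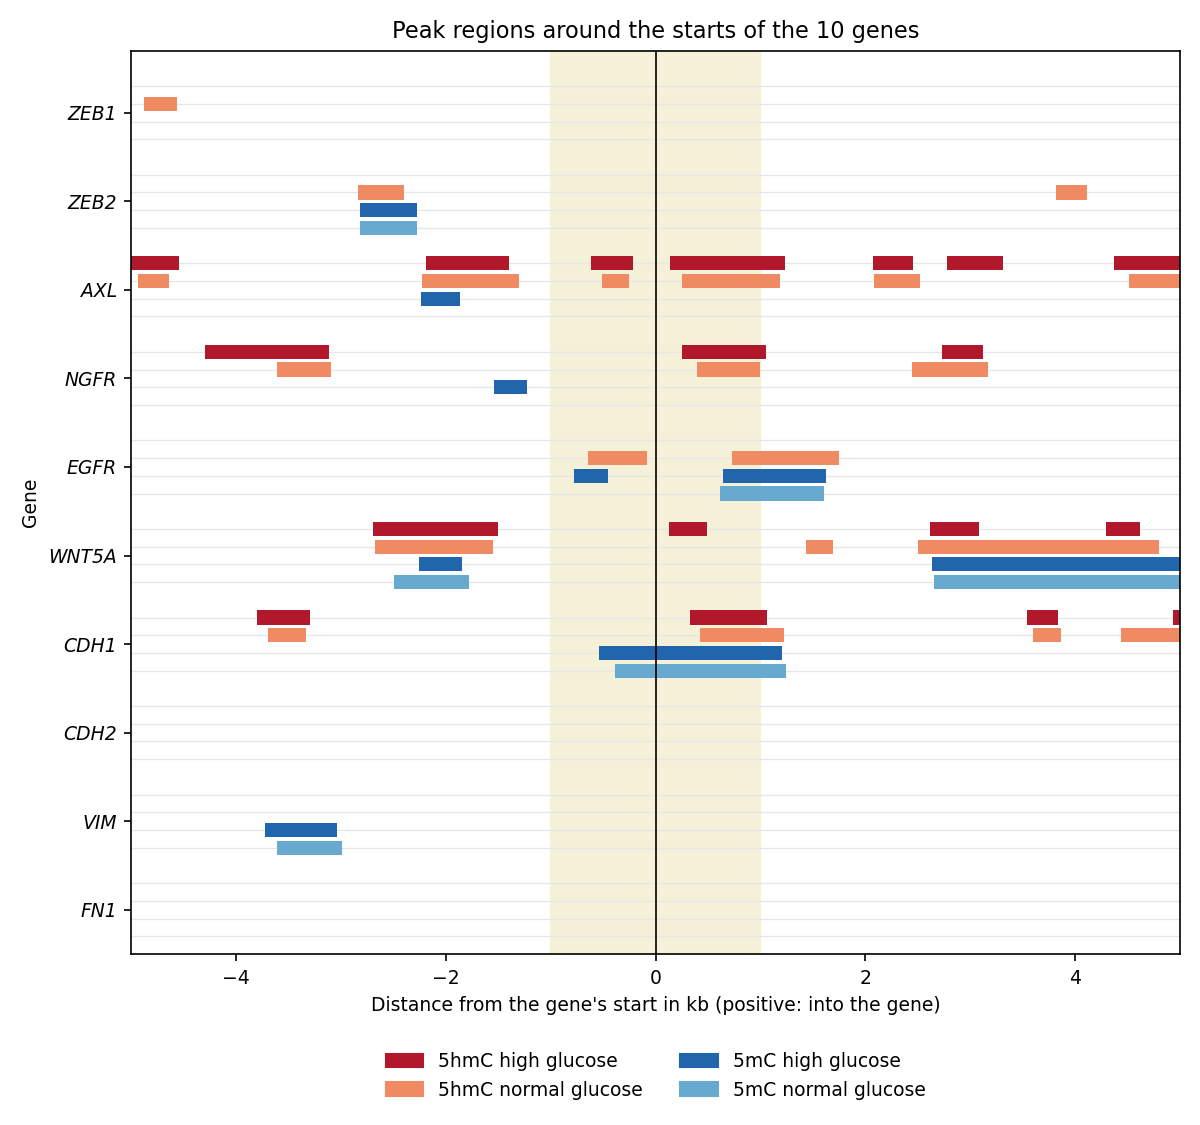
Peak regions within 5 kb of the starts of the 10 genes. The x axis is the distance from the start in kb, each gene has a lane per peak list (from the top: 5hmC high, 5hmC normal, 5mC high and 5mC normal glucose), and the shaded band is the 2 kb window. Regions touch the band at AXL, NGFR, EGFR, WNT5A and CDH1, and only at CDH1 do they span the start.

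Over the 10 intervals, 1129 kb in all, 5hmC regions were listed at 9.13 per 100 kb in high and 12.0 per 100 kb in normal glucose, where the whole lists had 6.49 and 7.13. 5mC regions were listed at 5.58 per 100 kb at each glucose level, against 3.40 and 3.12 in the whole lists. Whole-list densities and cover are over each chromosome's span from its first to its last region in any list. No stretch was left out of that span, also none where peaks cannot be called. The density was far from even among the genes. AXL had 30.4 5hmC regions per 100 kb in high and 38.0 in normal glucose, NGFR 30.3 and 40.4, WNT5A 25.3 and 28.5, and EGFR 14.1 and 21.2. CDH2 had 3.81 and 5.50 and FN1 1.17 and 2.33. The density exceeded that of the whole list in 6 of 10 genes for 5hmC and in 7 of 10 for 5mC, at both glucose levels. Against the gene's own chromosome it was higher in 6 genes in high and 7 in normal glucose for 5hmC, and in 7 at each level for 5mC. Chromosome 19, which holds AXL, had 14.7 and 16.0 5hmC regions per 100 kb, and chromosome 17, which holds NGFR, 11.2 and 12.9. Both are above the whole lists. EGFR held 27.2% of the 5hmC members in high and 30.9% in normal glucose, and 42.9% and 46.0% of the 5mC members, in 17.6% of the bases, so totals over the genes lean on it.

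**Figure D2:**
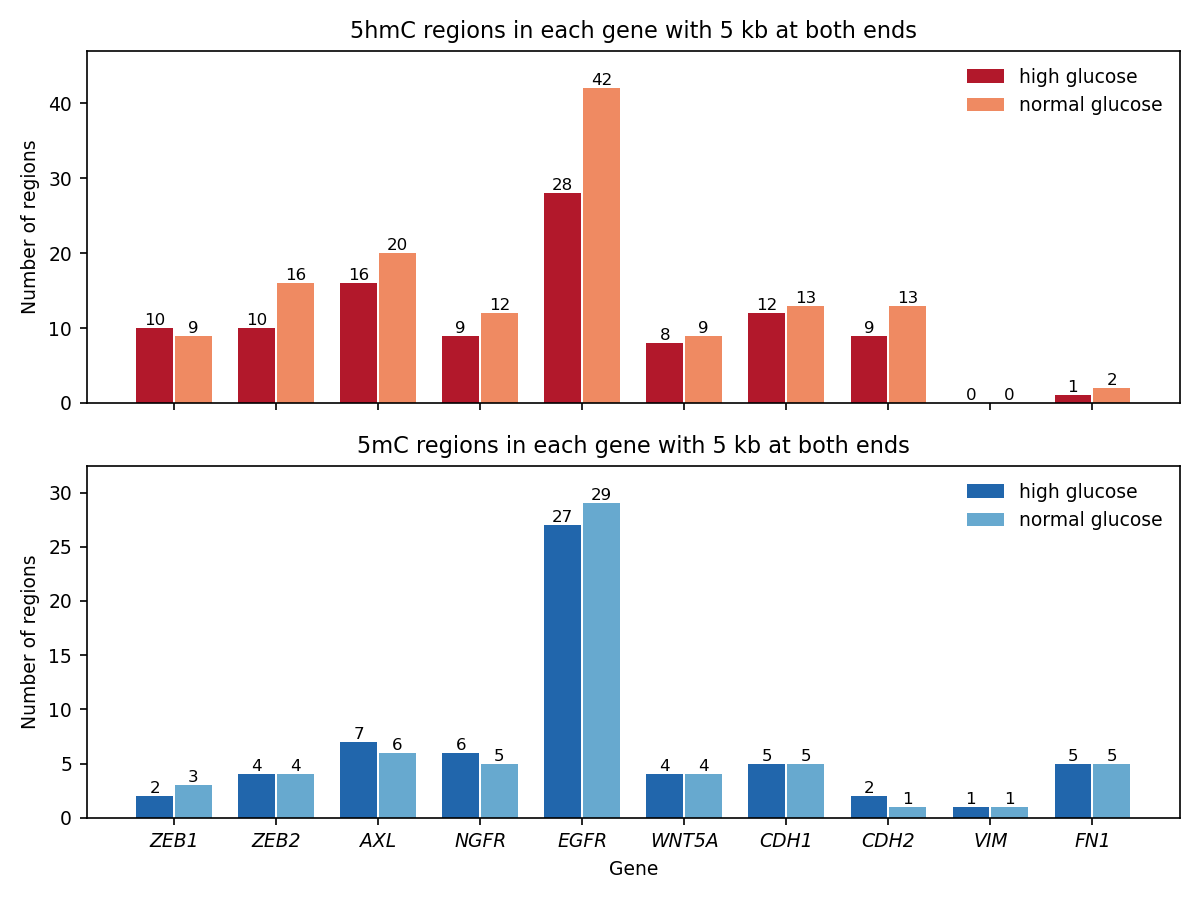
Number of 5hmC regions (upper panel) and 5mC regions (lower panel) in each gene with 5 kb at both ends, with high glucose to the left of normal glucose. The y axis is a count from 1 library per bar, without error bars. 5hmC counts are lower in high glucose in 8 genes, from 28 against 42 at EGFR to 1 against 2 at FN1, though EGFR, CDH1, CDH2 and FN1 turn with -log10 p of at least 10. The whole 5hmC lists turn at that threshold too. The 5mC totals of these genes are 63 at each level.

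High glucose had 103 5hmC regions at these genes and normal glucose 136, a ratio of 0.757 where the whole lists gave 0.911. With only regions of -log10 p of at least 10 the direction turned, to 54 in high and 46 in normal glucose. The whole lists turned too, to 95542 in high and 85278 in normal glucose, so the turn is not particular to these genes. After the high-glucose list, whose background was the larger, was also scaled down to match normal glucose, the counts at these genes were 43 and 46. The count was lower in high glucose in 8 genes, equal in VIM and higher in ZEB1, and with -log10 p of at least 10 it was lower in 2, equal in 4 and higher in 4. Among all 100 kb windows with a 5hmC region, 46.3% had fewer in high glucose; those windows are of another size than the gene intervals, which run from 19.3 to 237 kb. EGFR had 28 regions in high and 42 in normal glucose, ZEB2 10 and 16, AXL 16 and 20, CDH2 9 and 13, and NGFR 9 and 12. With -log10 p of at least 10, EGFR turned to 17 and 11 and CDH2 to 4 and 2, and at matched background to 15 and 11 and to 3 and 2. The smaller differences were at CDH1 (12 and 13), WNT5A (8 and 9), FN1 (1 and 2) and ZEB1 (10 and 9). With the stricter threshold CDH1 turned to 5 and 3 and FN1 to 1 and 0. 5hmC regions covered 65.2 kb of the intervals in high and 89.5 kb in normal glucose, or 5.78% and 7.93%, where the whole lists covered 3.90% and 4.23%. Cover was not recomputed with -log10 p of at least 10, where the counts turned. Without EGFR the counts were 75 and 94, a ratio of 0.798.

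The 5mC totals were 63 in high and 63 in normal glucose as listed, where the whole lists gave a ratio of 1.09, and covered bases were 40.8 kb in high and 41.4 kb in normal glucose. With equal numbers of top peaks taken from both lists they were 56 and 63. As listed, the count was lower in high glucose in 2 genes, EGFR (27 and 29) and ZEB1 (2 and 3), equal in 5 and higher in 3. Windows of 100 kb with fewer 5mC regions in high glucose made up 25.8% of those with any. AXL had 7 and 6 regions, NGFR 6 and 5, and CDH2 2 and 1.

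Both ZEB genes carried their strongest 5mC deep in the gene. At ZEB1 it lay 42.9 kb inside in high glucose (chr10:31650524-31651613, fold 21.3, 36 fragments) and 42.8 kb inside in normal glucose (chr10:31650486-31651538, fold 15.5, 24 fragments), with no 5hmC over it. ZEB1's strongest 5hmC region was near the far end of the gene, 208 kb inside (chr10:31815738-31816193 in high glucose, fold 6.20, 24 fragments, and chr10:31815822-31816215 in normal glucose, fold 6.05, 21 fragments). None of the ZEB1 5hmC regions, 10 in high and 9 in normal glucose, overlapped 5mC of the same glucose level, where the whole lists had 17.6% and 18%. ZEB1 held few 5mC regions to overlap, 0.906 and 1.36 per 100 kb, where the whole lists had 3.40 and 3.12. At ZEB2 the strongest 5mC lay 130 kb inside (chr2:145146855-145147819 in high glucose, fold 25.9, 44 fragments, and chr2:145146926-145147968 in normal glucose, fold 19.2, 30 fragments). The strongest 5hmC of ZEB2 lay 74.0 kb inside, at chr2:145203581-145204149 in high glucose (fold 8.93, 35 fragments) and chr2:145203673-145204146 in normal glucose (fold 8.52, 30 fragments). The leading regions of both repressors were thus found at both glucose levels and carried 1 mark each. At ZEB2 4 of 10 5hmC regions of high glucose and 10 of 16 of normal glucose had no overlapping region at the other level, where the whole lists had 24.1% and 31.2%. Upstream of ZEB2, 5mC was listed at both glucose levels with summits 2532 bp before the start, and 5hmC overlapped it in normal glucose alone, with a fold of 3.93.

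AXL, the receptor for GAS6, had the widest 5hmC region of all members. It covered 4964 bp in high glucose (chr19:41742257-41747220, fold 10.8, 91 fragments) and 3416 bp in normal glucose (chr19:41743755-41747170, fold 15.1, 71 fragments), with the summit 20.4 kb inside the gene in both lists, and weaker 5mC regions overlapped it. A second wide 5hmC region sat 11.2 kb inside, at chr19:41735442-41737264 in high glucose (fold 8.37, 84 fragments) and chr19:41735486-41737280 in normal glucose (fold 8.19, 61 fragments), without 5mC. In all, 5hmC covered 28.8% of the AXL interval in high and 33.0% in normal glucose. The strongest 5mC of AXL was 34.0 kb inside (chr19:41758829-41759482 in high glucose, fold 23.2, 56 fragments, and chr19:41758846-41759738 in normal glucose, fold 27.0, 59 fragments), where 5hmC was listed at both levels too. Beyond the end of AXL, where RefSeq on GRCh38.p14 places HNRNPUL1 as the neighbour, 5hmC lay 47.6 kb from the AXL start with a fold of 12.0 in high and 13.2 in normal glucose. That region cannot be assigned to either gene.

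NGFR held the strongest 5mC region of all members in high glucose. It lay 11.1 kb inside the gene, at chr17:47583120-47584088 in high glucose (fold 64.1, -log10 p 219, 129 fragments) and chr17:47583358-47584100 in normal glucose (fold 53.2, -log10 p 159, 95 fragments), and no 5hmC region overlapped it at either glucose level. The strongest 5hmC was upstream, 3388 bp before the start in high glucose (chr17:47568359-47569536, fold 12.6, 64 fragments) and 3298 bp before it in normal glucose (chr17:47569041-47569558, fold 12.6, 55 fragments). All 9 of the high-glucose 5hmC regions of NGFR had a normal-glucose partner, and 3 of 12 normal-glucose regions had none in high glucose, where 24.1% and 31.2% of the whole lists had no partner.

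EGFR, the receptor of epidermal growth factor, held regions of both marks more densely than the whole lists, but not evenly along its length. It had no region of either mark between chr7:55094590 and chr7:55117237 in any list. Its strongest 5hmC lay 148 kb inside the gene with the summit at the same base in both lists (chr7:55234131-55235532 in high glucose, fold 15.6, 85 fragments, and chr7:55234181-55235576 in normal glucose, fold 16.6, 69 fragments), over a 5mC region of both levels. Another wide 5hmC region was near the end of the gene (chr7:55270753-55272958 in high glucose, fold 11.9, 83 fragments, and chr7:55270760-55272808 in normal glucose, fold 12.5, 70 fragments). Inside the gene 59.5 and 59.4 kb from the start was a wide 5mC region (chr7:55145409-55147411 in high glucose, fold 25.0, 56 fragments, and chr7:55145395-55147442 in normal glucose, fold 33.2, 55 fragments). The main regions of EGFR were alike in position at both glucose levels. The first 5hmC region of high glucose, however, had its summit 31.0 kb inside the gene, while normal glucose had regions with summits 550 bp upstream and 1617, 6286 and 7666 bp downstream. Those 4 regions had folds of 2.94, 3.80, 3.78 and 4.54 and -log10 p values of 4.40, 6.28, 7.00 and 8.52, all under 10. In all, 3 of the 28 high-glucose 5hmC regions of EGFR had no normal-glucose partner, where 24.1% of the whole list had none, and 17 of the 42 normal-glucose regions had no high-glucose partner, against 31.2% of the whole list. In normal glucose 2 more 5hmC regions of EGFR reached 1500 bp, chr7:55145621-55147197 and chr7:55244772-55246274. The local background of the EGFR regions, relative to the lowest of its list, had a median of 1.51 in high and 1.42 in normal glucose for 5hmC, against 1.37 and 1.42 over the whole lists. For 5mC it was 1.60 and 1.48, against 1.23 and 1.19, and its part in the counts was not tested.

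**Figure D3:**
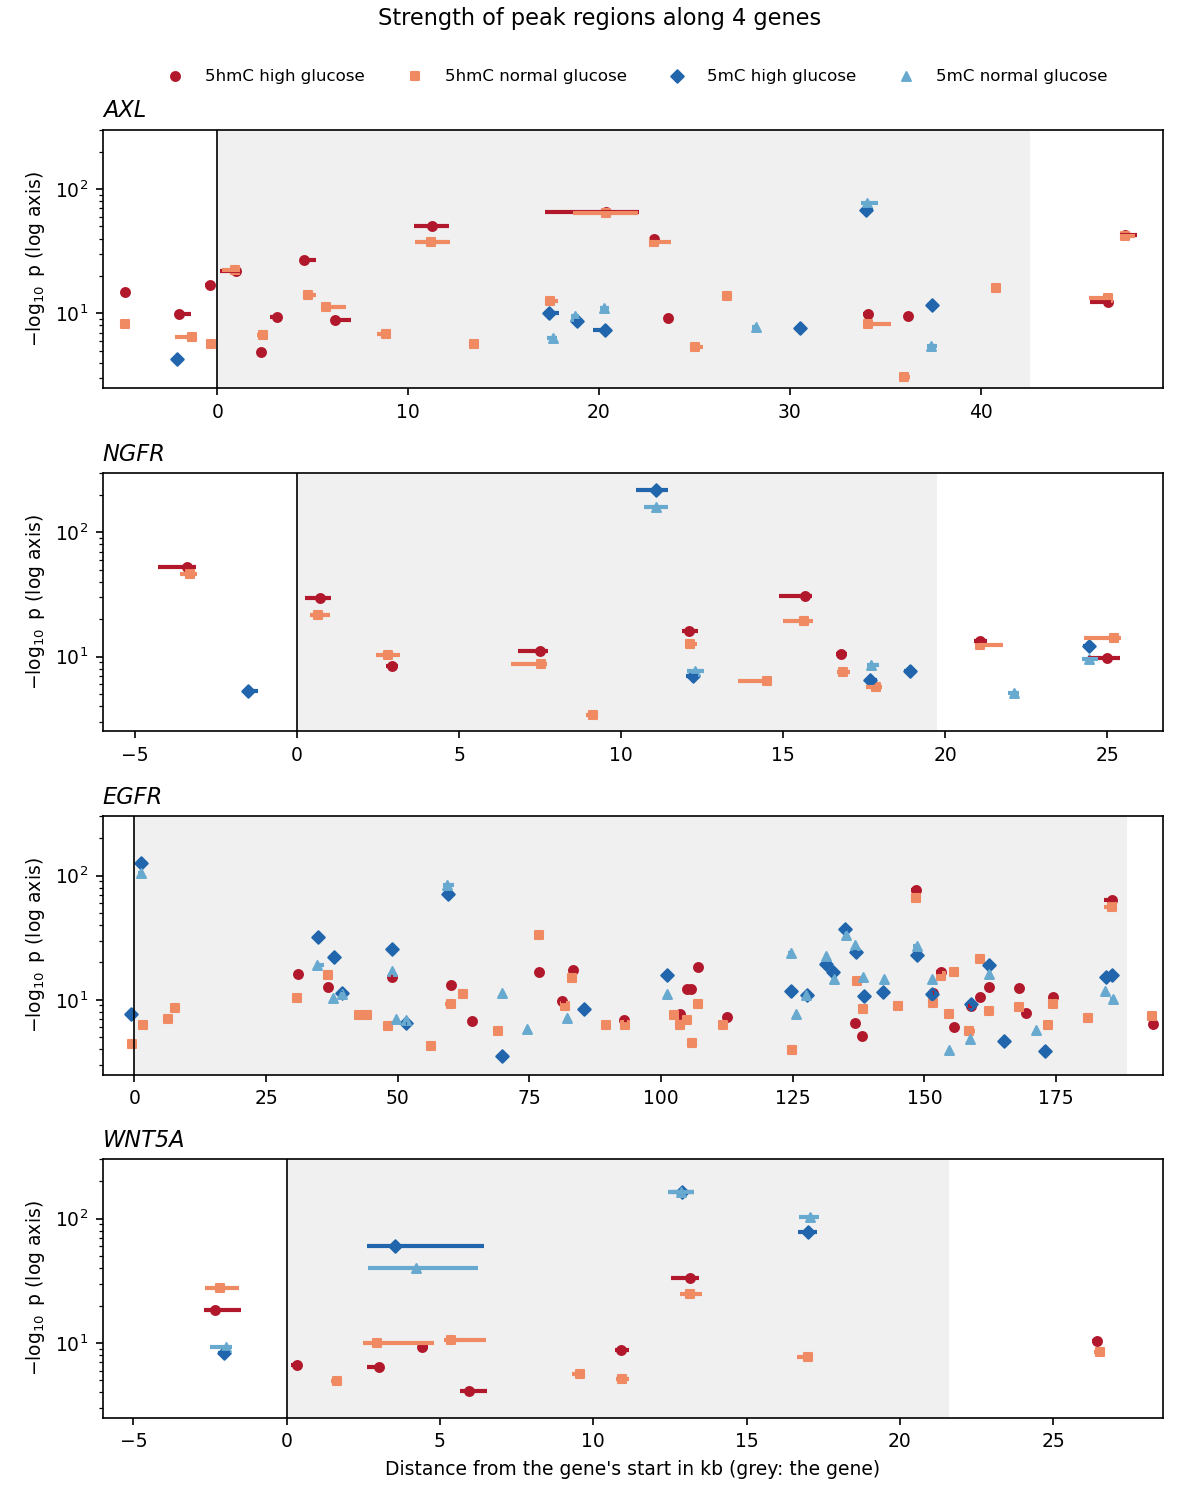
Regions along AXL, NGFR, EGFR and WNT5A. The x axis is the distance from the gene's start in kb, the y axis is the -log10 p of the region on a log axis, points are summits and horizontal lines the width of a region, and the gene is shaded grey. The strongest region of each gene and mark stands at nearly the same place at both glucose levels, except for 5hmC at WNT5A, and 5hmC points of high glucose are missing over the first part of EGFR.

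WNT5A, the ligand among these genes, carried 5hmC over each of its 4 5mC loci at 1 or both glucose levels, while 5 of its 10 5hmC loci had no 5mC at either. A locus is a set of overlapping member regions of 1 mark, merged across glucose levels, so locus counts have no whole-list share beside them. Its strongest 5mC lay 12.9 kb inside, at chr3:55508054-55508807 in high glucose (fold 54.5, 96 fragments) and chr3:55508057-55508880 in normal glucose (fold 53.4, 99 fragments). 5hmC overlapped it in both lists, and in high glucose this was the strongest 5hmC region of the gene (chr3:55507881-55508784, fold 9.30, 47 fragments). In normal glucose the strongest 5hmC was 2161 bp upstream of the start (chr3:55522884-55524007, fold 9.21, 38 fragments), where high glucose had a region with a fold of 6.43 and 32 fragments. A 5mC region of 3798 bp in high glucose (chr3:55514900-55518697, fold 23.1, 48 fragments) and 3576 bp in normal glucose (chr3:55515100-55518675, fold 18.5, 31 fragments) was the widest 5mC region among the members. Over it 5hmC was listed in 3 regions of high glucose and in 2 wider regions of normal glucose, of which chr3:55516529-55518828 spanned 2300 bp. All 4 5mC regions of WNT5A had a partner at the other glucose level, where 28.3% of the high-glucose and 21.5% of the normal-glucose list had none. 5hmC of the same glucose level overlapped 3 of 4 5mC regions in high and 4 of 4 in normal glucose. In the whole lists 32.2% and 39.7% of 5mC regions overlapped 5hmC.

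The cadherins differed in how much of either mark they held. At CDH1, beyond its start, the strongest 5hmC was chr16:68804360-68804799 in high glucose (fold 5.42, 36 fragments) and chr16:68794659-68795844 in normal glucose (fold 7.12, 39 fragments). Both had a partner at the other level. CDH1 also had a 1701 bp 5hmC region in normal glucose, chr16:68775636-68777336, with a fold of 4.45. Without a partner were 3 of its 5 5mC regions of high glucose and 3 of the 5 of normal glucose, against 28.3% and 21.5% of the whole lists. CDH2, the longest gene of the list at 227 kb, had 2 5mC regions in high and 1 in normal glucose, all weak. The shared one lay 27.3 kb inside in high glucose (chr18:25730022-25730361, fold 5.76, 9 fragments) and 27.1 kb inside in normal glucose (chr18:25730054-25730416, fold 6.19, 9 fragments), under 5hmC of both levels. The strongest 5hmC of CDH2 was 92.1 kb inside in high glucose (chr18:25664671-25665649, fold 8.54, 36 fragments) and 44.6 kb inside in normal glucose (chr18:25711857-25713008, fold 6.32, 22 fragments).

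VIM and FN1, the structural genes of the list, held the least 5hmC. VIM had no 5hmC region in its 19.3 kb interval in either list, where the mean density of the lists would give 1.26 in high and 1.38 in normal glucose, so none in so short an interval is not far from the average. Its single 5mC region lay upstream, at chr10:17266532-17267216 in high glucose (fold 9.21, 15 fragments, 3443 bp before the start) and chr10:17266646-17267268 in normal glucose (fold 6.19, 9 fragments, 3439 bp before the start). FN1 had 1 5hmC region in high and 2 in normal glucose, where the mean density would give 5.57 and 6.11. The shared one was chr2:216265842-216266199 in high glucose, with a fold of 5.95 and 23 fragments. The stronger one of normal glucose, chr2:216273876-216275001, had a fold of 4.45 and 16 fragments, no partner in high glucose, and 5mC under it at both levels. That 5mC was the strongest of FN1 in high glucose (chr2:216273791-216274623, fold 12.1, 20 fragments), while in normal glucose the strongest was chr2:216239784-216240334 (fold 9.42, 15 fragments).

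Part of the regions had no overlapping region at the other glucose level, and for 5hmC the order of the shares depended on the threshold. Of the high-glucose 5hmC members, 16 of 103 had no normal-glucose partner, or 15.5% (exact 95% interval 9.15 to 24.0), where the share over the whole list was 24.1%. Of the normal-glucose 5hmC members, 51 of 136 had no high-glucose partner, or 37.5% (29.4 to 46.2), where the whole list had 31.2%. With -log10 p of at least 10 in both lists the order turned, with 42.6% of high-glucose and 32.6% of normal-glucose regions lacking a partner. At matched background, as scaled above, the shares were 37.2% and 39.1%. Whole-list shares under these rules were not worked out, so whether the turn is particular to these genes is not known. For 5mC it was 16 of 63 in high glucose, or 25.4% (15.3 to 37.9), against 28.3% over the list, and 15 of 63 in normal glucose, or 23.8% (13.98 to 36.2), against 21.5%. The intervals cover counting error only, since reads and neighbouring regions are not independent, and the list's own share lay inside 3 of the 4 and just above the one for high-glucose 5hmC. As loci, 5hmC formed 84 loci of both levels, 16 of high glucose alone and 51 of normal glucose alone, and 5mC formed 47, 16 and 15. These loci were merged from the members as listed, without a count over the whole lists or one with -log10 p of at least 10.

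Members found at 1 glucose level were weak. Their median -log10 p was 6.82 for 5hmC of high glucose and 6.87 for 5hmC of normal glucose, where shared members had 10.8 and 9.48. For 5mC the medians were 6.42 and 5.79, where shared members had 15.7 and 13.2. A -log10 p of at least 10 was reached by 2 of the high-glucose and 5 of the normal-glucose 5hmC regions without a partner. The high-glucose ones were chr7:55135508-55135836 in EGFR, over 5mC of both levels and 601 bp from the nearest normal-glucose 5hmC, and chr2:145164100-145164474 in ZEB2, 13651 bp from it. In normal glucose they were chr2:145221323-145221665 and chr2:145225379-145225798 in ZEB2, chr19:41751622-41751985 and chr19:41765696-41766197 in AXL, and chr7:55148961-55149538 in EGFR. Their distances to high-glucose 5hmC ran from 1054 to 4792 bp, and none overlapped 5mC. The strongest of these 5 was the AXL region chr19:41765696-41766197, 40.8 kb inside the gene, with a fold of 6.10 and 28 fragments. Set against all members of that strength, they made up 2 of the 54 of high glucose and 5 of the 46 of normal glucose, or 3.70% and 10.9%, where the whole lists had 9.88% and 8.9%.

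For 5mC, regions of that strength without a partner numbered 3 of 37 in high glucose and 2 of 35 in normal glucose, or 8.11% and 5.71%, where the whole lists had 6.97% and 4.21%. In high glucose they lay in ZEB2 (chr2:145161356-145161849, fold 8.36, 15 fragments), CDH1 (chr16:68808847-68809260, fold 8.02, 13 fragments) and FN1 (chr2:216290750-216291117, fold 6.91, 11 fragments). In normal glucose they lay in ZEB1 (chr10:31620078-31620559) and CDH1 (chr16:68835566-68835990), each with a fold of 6.81 and 10 fragments. All 5 were more than 13 kb from the nearest 5mC region of the other level, and none rested on more than 15 fragments at the summit.

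**Figure D4:**
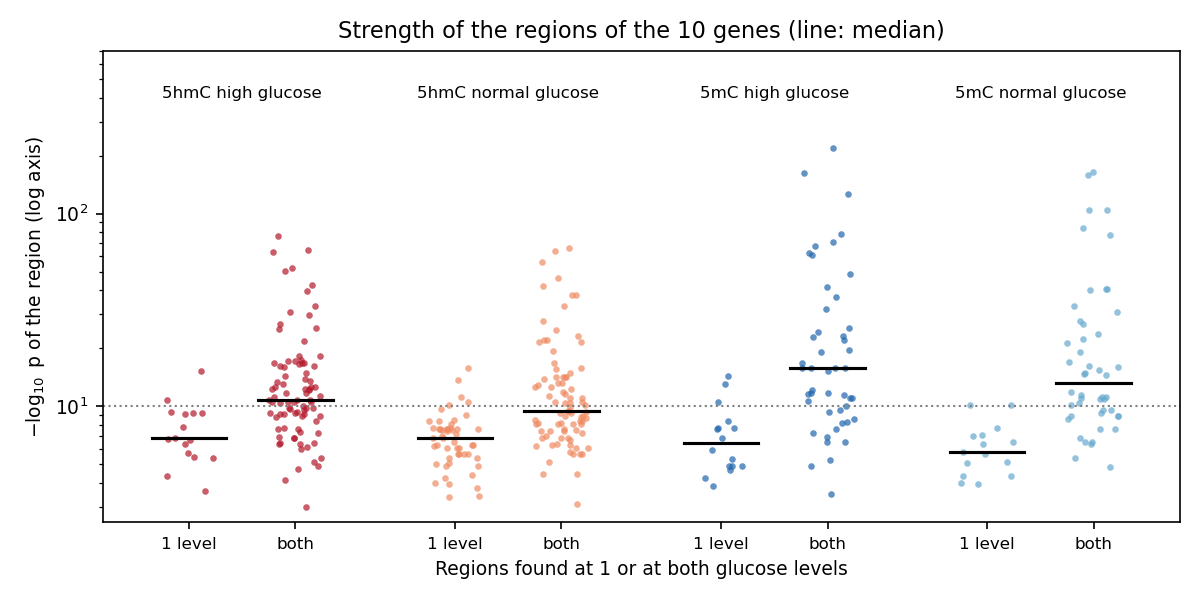
Strength of each member region by list. The y axis is the -log10 p of the region on a log axis, the x axis separates regions found at 1 glucose level from those found at both, each point is a region, the line is the median, and the dotted line marks 10. Medians of regions found at 1 level lie between 5.79 and 6.87, and those of shared regions between 9.48 and 15.7.

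The marks overlapped on part of their regions. In high glucose 22 of 63 5mC members overlapped a 5hmC region, or 34.9% (exact 95% interval 23.3 to 48.0), and in normal glucose 28 of 63, or 44.4% (31.9 to 57.5). The whole lists had 32.2% and 39.7%, so the shares of these genes lay close to the background. With -log10 p of at least 10 in all lists the order turned, to 27.0% in high and 20% in normal glucose. At matched background the shares were 26.7% and 20%, and whole-list shares under these rules were not worked out. Seen from 5hmC, 21 of 103 members overlapped 5mC in high glucose, or 20.4%, and 28 of 136 in normal glucose, or 20.6%, where the lists had 17.6% and 18%. EGFR supplied 10 of the 22 and 13 of the 28 5mC members with 5hmC. Of the 47 5mC loci found at both glucose levels, 20 carried 5hmC at both levels, 20 carried none, 6 carried 5hmC of normal glucose alone and 1 of high glucose alone. No such split was made over the whole lists. The marks were listed at opposite glucose levels at 3 loci, with no count over the whole lists to set beside it. These were 2 loci that had 5mC in high glucose alone and 5hmC of normal glucose alone, both in EGFR, and 1 the other way round, in ZEB1. The EGFR loci were the weak pair just upstream of the start described above and a 5hmC region at chr7:55259642-55260315 over 5mC at chr7:55259335-55260138. In ZEB1 the 5hmC region chr10:31620441-31620732 of high glucose, with a fold of 3.00 and 12 fragments, lay over the 5mC region chr10:31620078-31620559 of normal glucose. These regions were picked for this pattern after their values were seen.

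**Figure D5:**
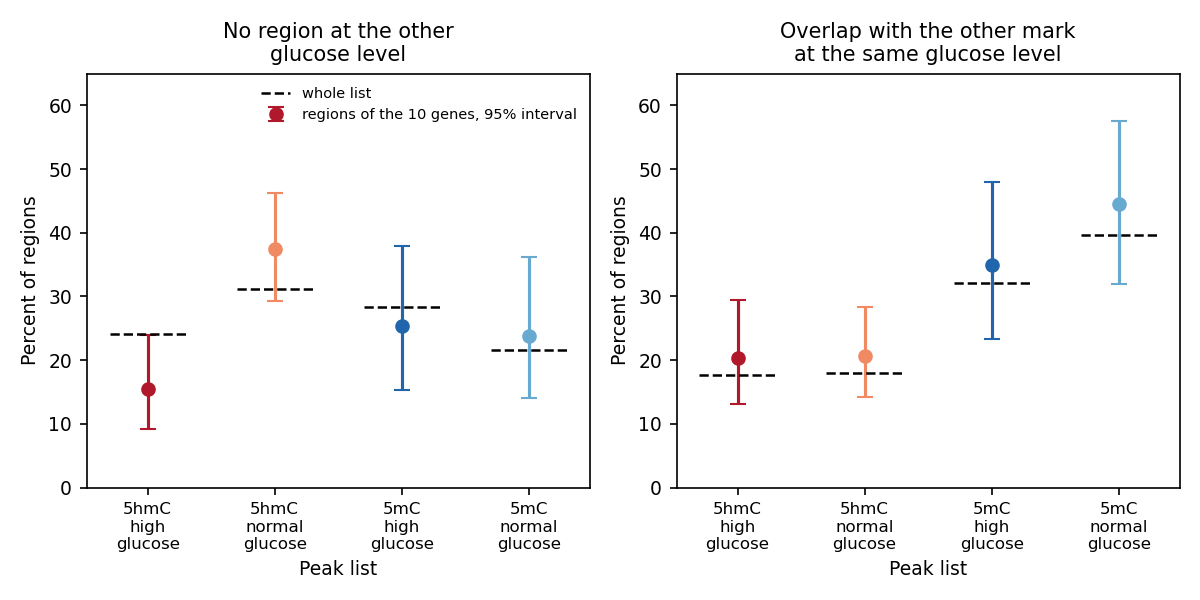
Shares of the member regions with no region at the other glucose level (left) and with an overlapping region of the other mark at the same glucose level (right). The y axis is the percent of regions, points are the members of the 10 genes with exact 95% binomial intervals that cover counting only, and dashed lines are the whole lists. The normal-glucose 5hmC point on the left stands at 37.5% and the high-glucose one at 15.5%, with dashed lines at 31.2% and 24.1%. With -log10 p of at least 10, the order of the 5hmC shares on the left and of the 5mC shares on the right turns.

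By position, cover of the start windows came from a few genes, since 5 of 10 had none there in any list. Over the 10 genes 5hmC covered 15.2% of the start windows in high and 15.1% in normal glucose, and 5.45% and 7.74% of the gene bodies beyond. 5mC covered 11.1% and 8.91% of the start windows, and 3.44% and 3.59% of the bodies. The start windows are equally long, but long genes weigh more in the pooled bodies, so these values do not measure an enrichment at starts. In high and normal glucose 5hmC covered 27.1% and 33.1% of the AXL body, 17.1% and 28.4% for NGFR, and 14.6% and 28.7% for WNT5A. For the long ZEB1 it was 2.12% and 2.04%, and for CDH2 2.05% and 2.83%. Cover of starts and bodies over all genes was not worked out. All the 5mC cover of start windows was in CDH1, with 1543 bp in high and 1393 bp in normal glucose, and EGFR, with 682 and 389 bp. WNT5A, NGFR and AXL had none in the start window, while 5mC covered 25.1%, 10.6% and 7.96% of their bodies in high and 24.5%, 8.83% and 7.66% in normal glucose. RefSeq on GRCh38.p14 lists WNT5A starts 17957 and 23865 bp into its gene. The second was not placed on hg19, so 5mC counted here to the WNT5A body may lie over that start. Bodies held 55527 bp of 5hmC regions in high and 78870 bp in normal glucose, and the 5 kb downstream of the genes 2488 and 3595 bp. In the start windows it came to 3049 bp in high and 3022 bp in normal glucose. Within that sum EGFR had 0 and 837 bp, while AXL (1264 and 1009 bp), NGFR (749 and 602 bp), CDH1 (672 and 574 bp) and WNT5A (364 and 0 bp) had more in high glucose. These values sum regions called in each library separately, and cover was not recomputed with -log10 p of at least 10. In the 5 kb just outside the intervals another 6 5hmC regions were listed in high and 11 in normal glucose, and another 4 and 5 5mC regions.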

How the data were processed

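hMeDIP-seq and MeDIP-seq libraries of A2058 cells were analysed through 4 peak lists on hg19, 1 per library, and grouped by their titles. Inside the files, peaks of the library titled high glucose are named Ctrl and those of the one titled normal glucose Low, and the titles were followed. Tools listed, with no roles, in the submitters' processing notes are Bowtie 1.0.0, bedtools 2.17.0, SAMtools 0.1.18 and CASAVA 1.8.2. Which program called the peaks is not given in the sources used here. Each deposited list gives a display score (not used), the fold enrichment as a ratio, the p-value and q-value of every peak as -log10, and its summit, all by the authors. No q-value exceeded 0.0498.

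Rows on chromosomes 1 to 22 and X were kept, coordinates were made 1-based, and rows of a list did not overlap. Regions were shared at an overlap of 1 bp (Python 3.11.15, NumPy 2.4.6, pandas 2.3.3), and shares carry exact Clopper-Pearson intervals (SciPy 1.17.1). Fragments at a summit t and the expected count L were solved from a fold of (t + 1)/(L + 1) and the Poisson p-value, which at least 99.989% of rows per list allowed within 1% of the step to the next count, a search tested on simulated data. Strands of NGFR and CDH1 are from general knowledge, the others also from RefSeq. Exons and introns on hg19 were not used here, and a further list of pathway genes was not analysed here for the same reason. Regions named are the strongest per gene and list, those touching the start window, those of 1 glucose level with -log10 p of at least 10, and those of 1500 bp or more. The genes, lists and rules were chosen with earlier results of these data known.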

Additional observations from a re-analysis of the deposited data

How the results depend on the processing

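The total counts, shares and gene counts were recomputed with a -log10 q of at least 2, a -log10 p of at least 10, equal numbers of top peaks per mark, the gene intervals alone and an overlap of 50% of both regions. Omitting EGFR, and a -log10 p of at least 10 at matched background, were added after the data were seen. With -log10 q of at least 2, equal numbers or gene intervals alone, the 6 shares stayed inside their counting intervals and the 4 totals within 1.5 times, and the 5hmC difference stayed negative. The 5mC difference, high minus normal, was 0 and became -1, -7 and -3 in these 3 alternatives, with 56 against 63 regions at equal numbers. With -log10 p of at least 10, counts in high and normal glucose were 54 and 46 for 5hmC and 37 and 35 for 5mC, and at matched background 43 and 46, and 30 and 35. The 5hmC difference, high minus normal, was -33 and became 8 with -log10 p of at least 10, where the whole lists turned too. The high-glucose 5hmC share without a partner was then 42.6%, or 37.2% at matched background, against 32.6% and 39.1% for normal glucose. The share of high-glucose 5mC with 5hmC was 27.0%, or 26.7% at matched background, against 20% for normal glucose in both, so its order turned. A partner under the threshold no longer counts in these alternatives. With 50% overlap, the shares without a partner were 34.0% for high-glucose and 50% for normal-glucose 5hmC, and the shares of 5mC with 5hmC 11.1% in high and 30.2% in normal glucose. Whole-list shares were not worked out under any of these alternatives. Without EGFR, 36 and 34 5mC regions remained. Gene differences in 5hmC that turned were EGFR (6, and 4 at matched background), CDH1 (2 and 1), CDH2 (2 and 1) and FN1 (1 and 1), and ZEB1 at matched background alone (-2); the cause was not tested. No paired analysis was possible because each mark and glucose level has 1 library. 5mC regions rest on few fragments, as few as 5 at a summit, which limits what the 5mC lists can show.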
